A study of Homo sapiens with 8 samples.

Results

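DNA double-strand breaks (DSBs) were mapped in U2OS cells, a human osteosarcoma line, and the regions enriched in breaks (BLISS+ regions) that lie on chromosome 7 are described here. A region belonged to the set when its chromosome was given as 7, with coordinates on hg19. The set held 693 of the 10211 regions in 4 lists: 173 of 1192 and 96 of 788 in shNT replicates 1 and 2, and 227 of 4581 and 197 of 3650 in shCDK12 replicates 1 and 2. All cells expressed MycER, a Myc protein that tamoxifen switches on, and carried an inducible shRNA that was either non-targeting (shNT) or directed against CDK12 (shCDK12). The labels give 1 µg/mL doxycycline to switch on the shRNA, 300 nM 4-hydroxytamoxifen (OHT) for 40 h to activate MycER, 100 ng/mL nocodazole for 8 h to arrest cells in mitosis, and a release of 18 h before fixation in 2% paraformaldehyde. The groups shNT_OHT and shCDK12_OHT, with 2 libraries each, thus both had active MycER and differed in the shRNA, and are written shNT and shCDK12 from here on. The labels do not say whether the replicates came from separate cultures, so the spread between them may be technical, and 4 further libraries without OHT were not analysed here. The lists hold coordinates and no expression values, so the silencing of CDK12 could not be checked in them.

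A DSB is a cut through both strands of DNA. Oncogenic Myc raises transcription and forces cells into S phase, and collisions of the transcription machinery with replication forks are one known source of breaks. CDK12 is a kinase that phosphorylates the tail of RNA polymerase II and is needed for the full-length transcription of many long genes, several DNA repair genes among them. In sBLISS, the suspension form of the BLISS assay for breaks, the ends are ligated to an adapter in fixed cells, so that each sequenced fragment starts at a break. Chromosome 7 has a shorter p arm and a longer q arm, and the DNA next to its centromere is rich in repeats, to which short reads are hard to assign.

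The lists stand apart in ways that touch every number below. Without read counts in the files, library depth is unknown, and a list made with a fixed threshold grows with library yield. The shNT lists held regions on 13 chromosomes each, the shCDK12 lists on 22 and 23, and 8 chromosomes were listed in all 4 libraries. The other 7 of these serve as the comparison for chromosome 7. Absence from a list means that no region was called there. Intervals of shares reflect counting error alone, and regions that lie close together may not be independent.

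Along chromosome 7, the regions of shNT were concentrated in a segment of 10 Mb on the q arm, from 80 to 90 Mb. Those of shCDK12 were spread more widely, over the p arm and parts of the q arm up to 110 Mb. They were few in the windows from 65 to 70 Mb, with 2 and 1, and from 70 to 75 Mb, with 2 and 2. The segment held 77 and 44 regions in shNT replicates 1 and 2 and 18 in each shCDK12 replicate. The rest of the chromosome held 96 and 52 regions in shNT and 209 and 179 in shCDK12. Over all widths the numbers thus moved in opposite directions: 3.36-fold lower in shCDK12 inside the segment (log2 ratio of means -1.75) and 2.62-fold higher outside it (log2 ratio 1.39). In neither part did the libraries of the groups overlap in these numbers. The lower number inside the segment was one of regions of 2 kb. They made up 90.9 and 95.5% of its regions in shNT and 61.1 and 66.7% in shCDK12. Regions of at least 4 kb were few there in every library, and the groups overlapped in their number. Outside the segment the log2 ratio among regions of at least 4 kb was 3.38, from few such regions in shNT. The chromosome and the segment were selected on the number of regions listed there in these libraries, so these values are a description and were not tested.

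**Figure D1:**
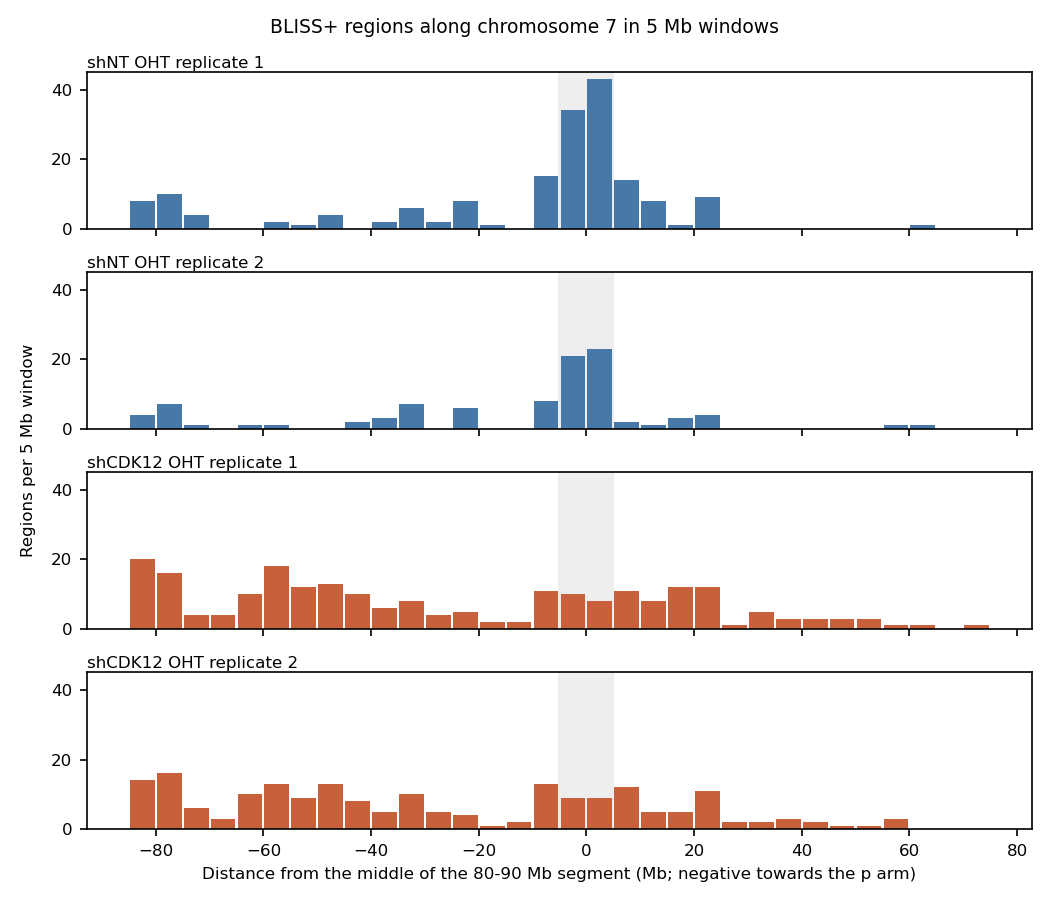
Number of BLISS+ regions per 5 Mb window (y axis) in each of the 4 libraries against the distance from the middle of the 80-90 Mb segment (x axis, Mb, negative towards the p arm). The shaded band is the segment, where shNT holds 77 and 44 regions and shCDK12 18 and 18.

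As a share of all chromosome 7 regions, the segment held 44.5 and 45.8% in shNT (mean 45.2% ± 0.937, SD, n = 2) and 7.93 and 9.14% in shCDK12 (mean 8.53% ± 0.854, SD, n = 2). The replicates of a group were close in this share although their region numbers were not. Per Mb, the segment was 11.6 and 12.2 times as dense as the rest of the chromosome in shNT, against 1.24 and 1.45 times in shCDK12. By covered length the difference inside the segment was smaller, 2.15-fold (log2 ratio -1.10), with 172 and 94 kb covered in shNT and 62 kb in each shCDK12 library. Among 140 windows of 10 Mb on the 8 chromosomes that every list holds, the segment ranked 2 and 3 by number of regions in shNT replicates 1 and 2. In shCDK12 it ranked 48 and 30.

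The segment also carried the higher share of chromosome 7 in shNT. Of the regions on the 8 chromosomes in common, chromosome 7 held 16.9 and 15.3% in shNT and 8.93 and 9.61% in shCDK12. With the segment left out, it held 10.1 and 8.90% in shNT (mean 9.52% ± 0.872, SD, n = 2) and 8.28 and 8.81% in shCDK12 (mean 8.55% ± 0.379, SD, n = 2). The remaining difference of -0.975 percentage points was about the size of the spread between replicates. In numbers, the log2 ratio of shCDK12 to shNT was 0.66 for the whole of chromosome 7, 1.39 outside the segment, and 1.59 on the other 7 chromosomes pooled, where single chromosomes ranged from 0.49 to 2.85. Without shNT replicate 1 the ratio for the whole of chromosome 7 was 1.14, and without shNT replicate 2 it was 0.29.

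The edges of the dense stretch were examined in windows of 1 Mb. On its p-arm side, both shNT lists were empty for a long way and then resumed at the same bin. In replicate 1 no region was listed between 67750000 and 78604001, a gap of 10854 kb, and in replicate 2 none between 63568000 and 78604001, a gap of 15036 kb. Between 70 and 78 Mb the shCDK12 lists held 8 and 9 regions, 5 and 6 of them in the window from 77 to 78 Mb. The window from 78 to 79 Mb held 3 and 2 regions in shNT and 1 in each shCDK12 library. The window from 79 to 80 Mb, just outside the segment, held 12 and 6 regions in shNT and 4 and 5 in shCDK12. The dense stretch therefore began about 1 Mb before 80 Mb: from 79 to 90 Mb there were 89 and 50 regions in shNT against 22 and 23 in shCDK12.

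On the other side the fall was at 90 Mb. The window from 89 to 90 Mb, just inside, held 5 and 3 regions in shNT and 0 and 1 in shCDK12. The windows from 90 to 92 Mb together held 2 and 0 regions in shNT and 5 in each shCDK12 library. The last shNT region before 90 Mb ended at 89850000 in replicate 1 and at 89676000 in replicate 2, and the next began at 90734001 and at 92694001. Further out the replicates of shNT differed. Between 92 and 100 Mb replicate 1 listed 20 regions and replicate 2 listed 3, with 14 and 12 in shCDK12, so the range of shNT enclosed both shCDK12 values.

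**Figure D2:**
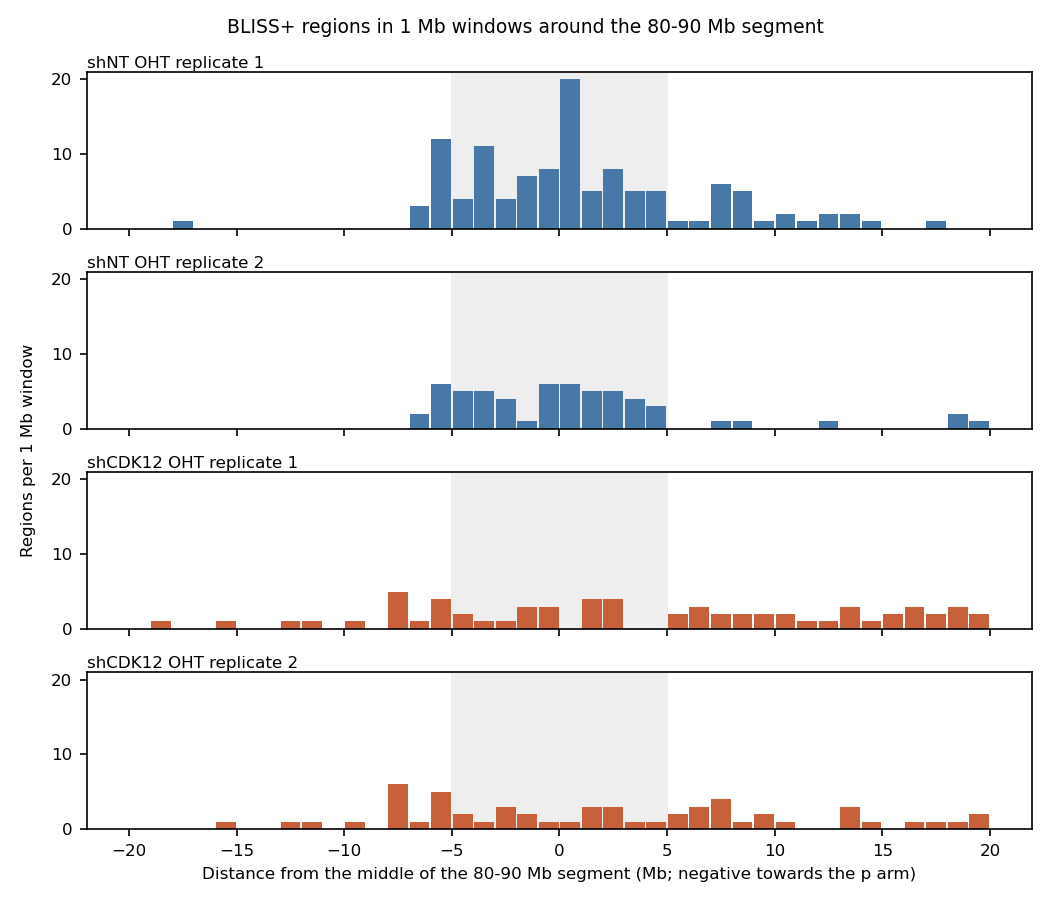
Number of BLISS+ regions per 1 Mb window (y axis) in each library, within 20 Mb of the middle of the 80-90 Mb segment (x axis, Mb), with the segment shaded. In shNT the windows from 1 Mb before the segment to its far edge hold 89 and 50 regions, and those of the next 2 Mb hold 2 and 0.

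Inside the segment the regions were spread over all its windows. Counts per Mb ran from 4 to 20 (median 6.0) in shNT replicate 1 and from 1 to 6 (median 5.0) in replicate 2, and no window was empty in either list. In shCDK12 they ran from 0 to 4 and from 1 to 3. The window from 85 to 86 Mb held the most in shNT replicate 1, with 20 regions, against 6 in replicate 2 and 0 and 1 in shCDK12. The median gap between neighbouring regions of the segment was 75 and 152 kb in shNT and 246 and 298 kb in shCDK12.

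Over the whole chromosome, 110 windows of 1 Mb held a region in at least 1 library. In 15 of them (13.6%) both shCDK12 counts were lower than both shNT counts, beside 4.32% of such windows over the 8 chromosomes in common and 3.19% over the other 7. In 51 windows (46.4%) both were higher, beside 57.4 and 58.7%. Of the 15 windows with lower counts, 11 were among the 12 windows between 78 and 90 Mb, the exception being the window from 83 to 84 Mb with 7 and 1 regions in shNT and 3 and 2 in shCDK12. In windows of 5 Mb, both shCDK12 counts were lower in 3 of 31 (9.68%, beside 3.32% over the 8 chromosomes and 2.5% over the other 7) and higher in 20 (64.5%, beside 80.1 and 82.1%). The 3 windows were those from 80 to 85 Mb, with 34 and 21 regions in shNT and 10 and 9 in shCDK12, from 85 to 90 Mb, with 43 and 23 against 8 and 9, and from 60 to 65 Mb, with 8 and 6 against 5 and 4. Chromosome 7 entered the set with its region numbers known, so nothing is read from these shares.

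By arm, the p arm (up to 58 Mb) had the larger rise in number. It held 39 and 26 regions in shNT (mean 32.5 ± 9.19, SD, n = 2) and 125 and 112 in shCDK12 (mean 118.5 ± 9.19, SD, n = 2), 3.65 times as many. On the other 7 chromosomes pooled there were 3.01 times as many. The log2 ratio of the p arm, 1.87, lay within the range of those single chromosomes, 0.49 to 2.85. Per Mb of the arm this was 0.672 and 0.448 regions in shNT and 2.16 and 1.93 in shCDK12. The q arm (from 61 Mb) held 134 and 70 regions in shNT and 102 and 85 in shCDK12, ranges that overlap. Outside the segment the q arm held 57 and 26 regions in shNT and 84 and 67 in shCDK12. No list held a region between 58 and 61 Mb, around the gap of the assembly at the centromere.

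With the segment left out, the q arm held 59.4 and 50% of the remaining regions in shNT (mean 54.7% ± 6.63, SD, n = 2) and 40.2 and 37.4% in shCDK12 (mean 38.8% ± 1.95, SD, n = 2). The difference was -15.9 percentage points with an exact permutation p-value of 0.333 (two-sided, over the 6 relabellings of the 4 libraries). With 2 libraries against 2 this is the smallest p-value the test can give. The same p-value was obtained in each of the 5 exact comparisons for chromosome 7, before and after Benjamini-Hochberg adjustment over the 5. None of them could thus pass a threshold of 0.05. Among the 5, the share of pairs described below was taken with the segment included. Among regions of at least 4 kb the q-arm difference was -4.13 percentage points and the libraries of the groups overlapped. The q-arm share still held the flank from 78 to 80 Mb, where shNT listed 15 and 8 regions and shCDK12 5 and 6. Part of the q-arm difference thus came from the edge of the dense stretch, and a share without this flank was not tested.

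Of the 5 windows of 5 Mb with the largest change in share, 2 made up the segment and 3 lay on the p arm between 25 and 40 Mb. The window from 80 to 85 Mb went from 20.8% ± 1.57 (SD, n = 2) of the list in shNT to 4.49% ± 0.115 (SD, n = 2) in shCDK12. The window from 85 to 90 Mb went from 24.4% ± 0.634 to 4.05% ± 0.738 (SD, n = 2). In the opposite direction, the window from 25 to 30 Mb went from 1.10% ± 0.0809 to 7.26% ± 0.941 (SD, n = 2), with 2 and 1 regions in shNT and 18 and 13 in shCDK12. The windows from 30 to 35 and from 35 to 40 Mb changed by 4.64 and 5.01 percentage points.

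These windows were part of a broader stretch of the p arm in which shNT was sparse. Between 20 and 45 Mb, limits drawn after the counts had been seen, there were 7 and 4 regions in shNT and 63 and 53 in shCDK12, that is 4.05 and 4.17% of the shNT lists and 27.8 and 26.9% of the shCDK12 lists. The first 20 Mb of the arm were less uneven, with 22 and 12 regions in shNT and 44 and 39 in shCDK12. Among the single windows with the most shCDK12 regions, the window from 6 to 7 Mb held 9 and 7 regions in shCDK12 and 1 and 0 in shNT. The window from 3 to 4 Mb, with 6 and 7 regions in shCDK12, held 4 and 3 in shNT.

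The far q arm held few regions for its length. Beyond 110 Mb shNT replicates 1 and 2 listed 1 and 2 regions (0.578 and 2.08% of the chromosome's regions) and shCDK12 replicates 21 and 14 (9.25 and 7.11%). The last region ended at 145696000 in both shNT lists, at 157482000 in shCDK12 replicate 1 and at 143546000 in replicate 2.

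Clustering was also measured without reference to any position. The share of all pairs of regions whose members fell in 1 window of 1 Mb, a measure of clustering that does not depend on the length of the list, was 3.51 and 2.83% in shNT (mean 3.17% ± 0.481, SD, n = 2) and 1.13 and 1.05% in shCDK12 (mean 1.09% ± 0.0623, SD, n = 2). The difference of -2.08 percentage points includes the segment, which was selected on these lists, and is a description. With the segment left out the shares were 3.46 and 3.32% against 1.25 and 1.20%. The difference was then -2.17 percentage points (exact permutation p-value 0.333, not adjusted and not among the 5 comparisons). Outside the segment too, then, the pair share was higher in both shNT libraries. These pairs still included the window from 79 to 80 Mb at the edge of the dense stretch. It held 12 and 6 regions in shNT and 4 and 5 in shCDK12, so this value is not free of the selected stretch. Among regions of at least 4 kb, segment included, the difference was -0.896 percentage points and the groups overlapped. If each list were reduced to 96 regions, the size of the shortest, 39.8 and 40.0 windows of 1 Mb would be expected to hold a region in shNT and 60.7 and 62.5 in shCDK12. A lower pair share in shCDK12 was not particular to chromosome 7. On chromosomes 1, 4, 6, 8, 10 and 14 it was also lower in both shCDK12 libraries than in both shNT libraries, and on chromosome 2 the groups overlapped.

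Regions of chromosome 7 were wider on average in shCDK12. A region is built from bins of 2 kb, and the median width was 1 bin in every library. Regions of a single bin made up 157 of 173 (90.8%) and 91 of 96 (94.8%) in shNT and 149 of 227 (65.6%) and 137 of 197 (69.5%) in shCDK12, -25.2 percentage points apart (exact permutation p-value 0.333). Regions of 6 kb or more numbered 6 and 1 in shNT and 52 and 40 in shCDK12. Widths averaged 2.29 and 2.13 kb in shNT (mean 2.21 kb ± 0.116, SD, n = 2) and 3.32 and 3.18 kb in shCDK12 (mean 3.25 kb ± 0.102, SD, n = 2), so the group means were 1.04 kb apart (exact permutation p-value 0.333). After merging of regions across gaps of up to 50 kb the difference was 0.326 kb and the libraries of the groups overlapped. On chromosomes 1, 2, 4, 8 and 14 both shCDK12 averages were also above both shNT averages. The groups overlapped on chromosome 6 and on chromosome 10, where widths averaged 4.10 and 3.71 kb in shNT and 3.96 and 3.23 kb in shCDK12.

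**Figure D3:**
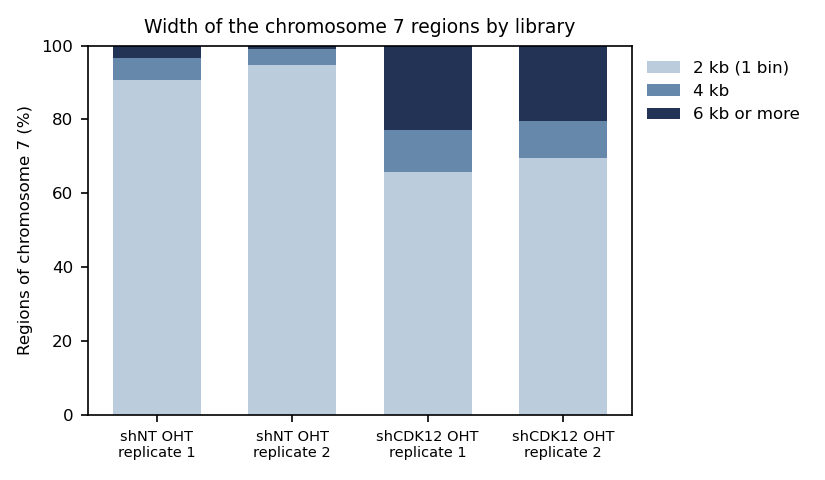
Share of the chromosome 7 regions of each library (y axis, %) that are 2 kb, 4 kb or at least 6 kb wide. Single bins make up 90.8 and 94.8% in shNT and 65.6 and 69.5% in shCDK12.

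Widths inside the segment were close to those on the rest of the chromosome. In shNT the average was 2.23 and 2.14 kb inside it and 2.33 and 2.12 kb outside. In shCDK12 it was 3.44 kb inside in both libraries and 3.31 and 3.15 kb outside. The differences between inside and outside were smaller than the difference between the groups.

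Replicates were compared next, a region being touched when it had at least 1 bp in common with a region of the other list. In shNT, 28 of 173 regions in replicate 1 (16.2%, 95% Wilson interval 11.4 to 22.4) and 28 of 96 in replicate 2 (29.2%, 21.0 to 38.9) were touched. On the other 7 chromosomes the shares were 25.4 and 42.7%. In shCDK12, 134 of 227 regions in replicate 1 (59.0%, 52.5 to 65.2) and 134 of 197 in replicate 2 (68.0%, 61.2 to 74.1) were touched, against 56.9 and 72.1% on the other 7 chromosomes.

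At the level of single regions, the shNT replicates had less in common inside the segment than outside it. Inside it, 8 of 77 regions in replicate 1 (10.4%, 5.36 to 19.2) and 8 of 44 in replicate 2 (18.2%, 9.51 to 32.0) were touched by the other replicate. Outside it the shares were 20 of 96 (20.8%, 13.9 to 30.0) and 20 of 52 (38.5%, 26.5 to 52.0), with intervals that overlap those inside. Both replicates of shNT thus filled the same 10 Mb, at mostly different bins. In shCDK12, 10 of the 18 regions of each replicate in the segment (55.6%, 33.7 to 75.4) were touched by the other, against 59.3 and 69.3% outside.

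At the scale of windows the replicates were closer. Over 32 windows of 5 Mb the counts of the shNT replicates had a Pearson correlation of 0.95 (0.746 over the 30 windows outside the segment), and those of the shCDK12 replicates 0.912 (0.913 outside). Between groups the correlation was 0.290 to 0.434 over the 4 pairs of libraries, and 0.489 to 0.681 outside the segment. Over 158 windows of 1 Mb it was 0.829 in shNT, 0.806 in shCDK12 and 0.178 to 0.334 between groups. The rank (Spearman) correlation over the 5 Mb windows outside the segment was 0.718 in shNT, 0.909 in shCDK12 and 0.572 to 0.712 between groups. By rank the shNT replicates were thus hardly closer to each other than shNT replicate 1 was to shCDK12 replicate 2. These correlations describe windows of the same libraries, many of them empty, and carry no test.

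The Jaccard index, the length shared by 2 lists divided by the length covered by either, was 0.111 between the shNT replicates, 0.456 between the shCDK12 replicates and 0.0413 to 0.0896 over the 4 pairs of different groups. Pairs within groups exceeded pairs between groups by 0.217 on average (exact permutation p-value 0.333). This difference rested on the shCDK12 pair: it was 0.0397 without shCDK12 replicate 1 and 0.0490 without shCDK12 replicate 2, and 0.408 and 0.369 without shNT replicates 1 and 2. On the other 7 chromosomes the index was 0.226 in shNT and 0.453 in shCDK12. Inside the segment it was 0.0640 in shNT and 0.348 in shCDK12. The ratio of list lengths caps the index, at 0.515 for the shNT pair and 0.830 for the shCDK12 pair.

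**Figure D4:**
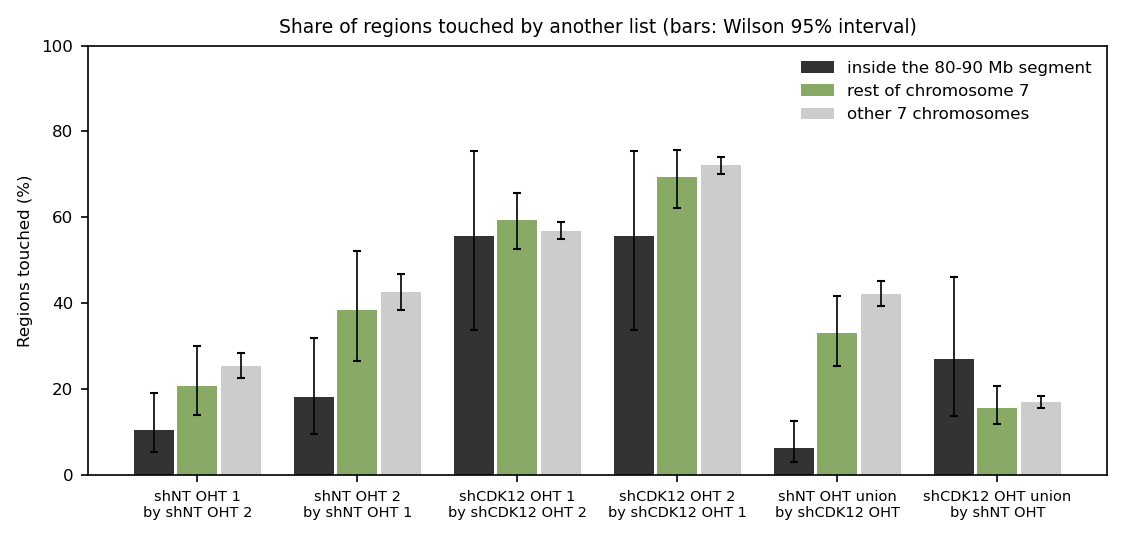
Share of regions touched by another list (y axis, %), inside the 80-90 Mb segment, on the rest of chromosome 7 and on the other 7 chromosomes listed in all libraries. Error bars are Wilson 95% intervals of counting error. Of the shNT union, 6.36% of regions inside the segment and 33.1% outside it are touched by shCDK12. The segment was selected on the numbers listed there.

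To ask which break regions were kept, lost or gained when CDK12 was silenced, the replicates of each group were joined by their union, which gave 237 regions in shNT and 287 in shCDK12. Of the shNT regions, 49 (20.7%, 95% Wilson interval 16.0 to 26.3) were touched by shCDK12, against 42.2% on the other 7 chromosomes, where single chromosomes ranged from 30.0 to 66.3%. Most shNT regions were also not touched by the other shNT replicate. Taken list by list, shNT replicate 1 was touched in 16.2% of regions by replicate 2 and in 19.1% by each shCDK12 library. For shNT replicate 2 these shares were 29.2% by replicate 1 and 18.8 and 20.8% by shCDK12. Absence from shCDK12 is thus not a measure of loss. Of the shCDK12 regions, 48 (16.7%, 12.9 to 21.5) were touched by shNT, against 16.9% on the other 7 chromosomes. This last share fell to 9.06% without shNT replicate 1.

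Inside the segment, 7 of 110 shNT regions (6.36%, 3.12 to 12.6) were touched by shCDK12, and outside it 42 of 127 (33.1%, 25.5 to 41.6). The segment was selected on the numbers listed there, so this contrast is a description. The shNT replicates touched each other there in 10.4 and 18.2% of regions. The p arm had 21 of 57 (36.8%) and the q arm outside the segment 21 of 70 (30.0%). Seen from the other group, 7 of 26 shCDK12 regions in the segment (26.9%, 13.7 to 46.1) and 41 of 261 outside it (15.7%, 11.8 to 20.6) were touched by shNT. Among the shNT regions found in both replicates, 16 of 32 (50%) were touched by shCDK12.

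Merging the 4 lists gave 470 regions on chromosome 7, of which 183 (38.9%) had a region in shNT alone, beside 20.7% of the merged regions of the 8 chromosomes in common. In shCDK12 alone there were 235 (50%, beside 65.1%), and 52 (11.1%, beside 14.2%) were in both groups. Of the 183 regions listed in shNT alone, 100 (54.6%) lay in the segment, as did 16 of the 235 in shCDK12 alone (6.81%) and 126 of all 470. Because the segment was selected on the numbers listed there, these shares are a description and give no result on lost or gained regions. Most regions listed in shNT alone were seen once: 167 of the 183 (91.3%) were in a single shNT replicate, 92 of them in the segment. This was not particular to chromosome 7. On the other 7 chromosomes 48 of 617 such regions were in both shNT replicates, beside 16 of 183 here.

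**Figure D5:**
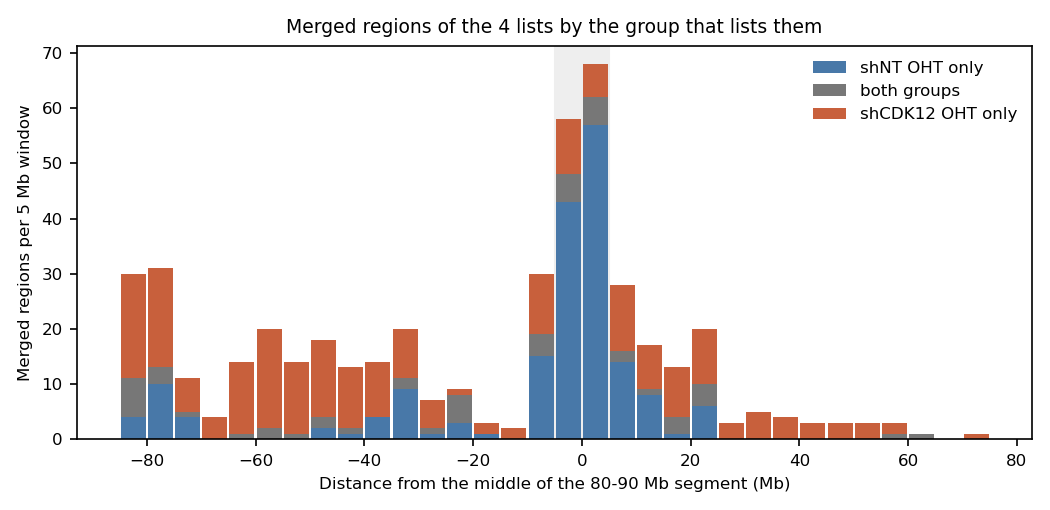
Merged regions of the 4 lists per 5 Mb window (y axis, stacked) by the group that lists them, against the distance from the middle of the 80-90 Mb segment (x axis, Mb), which is shaded. In the segment, 100 of 126 merged regions are in shNT alone, 10 in both groups and 16 in shCDK12 alone.

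Presence in both replicates narrowed these classes. In both shNT replicates and no shCDK12 library there were 16 merged regions (3.4%, beside 1.65%), of which 8 lay in the segment and 11 between 78 and 90 Mb. In both shCDK12 replicates and no shNT library there were 103 (21.9%, beside 29.8%), of which 61 lay on the p arm, 37 on the q arm outside the segment and 5 in it. In all 4 libraries there were 10 (2.13%, beside 3.75%). Mean width was 3.13, 4.10 and 6.80 kb in these classes. Part of this order follows from the definition, since a merged region grows with the lists that enter it.

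Most regions that were not touched lay well over a bin away from the other group. The 188 shNT regions not touched by shCDK12 lay at a median of 122 kb from the nearest shCDK12 region, and 17 of them lay within 10 kb. Inside the segment the median was 128 kb over 103 regions and outside it 114 kb over 85. The 239 shCDK12 regions not touched by shNT lay at a median of 420 kb from the nearest shNT region. For the 19 of these in the segment it was 18.0 kb, with 16 within 100 kb, and for the 220 outside it 502 kb, with 41 within 100 kb. These distances also follow the density of the other list.

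Positions on hg19, counted from 1, are listed for the longest regions of each class without annotation, because a genome and gene models of that build were not used here. For the same reason no sequence is shown. In all 4 libraries, the longest was a merged region of 14 kb next to the centromere (61744001 to 61758000), of which 10 and 6 kb were covered in shNT and 10 and 6 kb in shCDK12. It was followed by a region of 10 kb on the q arm (105918001 to 105928000), covered over 4 and 2 kb in shNT and 8 and 10 kb in shCDK12. Then came 3 regions of 8 kb. On the p arm, 1 of these (8006001 to 8014000) was covered over 4 kb in each shNT library and 8 kb in each shCDK12 library, and another (26236001 to 26244000) over 2 kb in each shNT library and 4 and 8 kb in shCDK12. The third (82068001 to 82076000) lay in the segment and was covered over 4 and 2 kb in shNT and 6 and 8 kb in shCDK12. Of these 5 regions, 4 were covered over a greater length in both shCDK12 libraries than in either shNT library, the exception being the one next to the centromere. The 5 were picked by merged length, to which the wider shCDK12 regions contribute, so nothing is read from this count.

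In both shCDK12 replicates and no shNT library, the longest were 2 regions of 10 kb on the q arm. The first (77160001 to 77170000) lay before the dense stretch, in the window from 77 to 78 Mb, and was covered over 10 and 4 kb. The second (101454001 to 101464000) was covered over its full 10 kb in both replicates. The next 3 were on the p arm, each 8 kb wide and covered over 6 and 8 kb in 1 or the other order: 12722001 to 12730000, 23048001 to 23056000 and 23510001 to 23518000. They were the first by position of 10 regions of that width.

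In both shNT replicates and no shCDK12 library, the longest was an 8 kb region next to the centromere (61906001 to 61914000), covered over 6 and 2 kb. The next, of 6 kb, lay in the segment (87872001 to 87878000) and was covered over 2 and 6 kb. Of 4 regions of 4 kb, the first by position were 1 on the p arm (7324001 to 7328000) and 2 in the segment (84994001 to 84998000 and 85482001 to 85486000). In each of the latter the replicates covered 2 kb each, that is, neighbouring bins.

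The stretch next to the centromere, from 61 to 62 Mb, is given separately because 2 of the named regions lie there. It held 7 and 5 regions in shNT and 3 and 4 in shCDK12, which came to 7 merged regions between 61054001 and 61970000, 2 of them in all 4 libraries. Covered length was 32 and 12 kb in shNT and 18 and 12 kb in shCDK12, so the groups overlapped in length though not in number. The next window, from 62 to 63 Mb, was empty in every list.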

How the data were processed

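Per the labels, the libraries are sBLISS libraries of 4 groups with 2 replicates each. Lists of the 4 OHT libraries were used, and the other 4 libraries were not analysed here. The deposited values are start and end coordinates on hg19, 1 list per library, with no count, signal or score. The aligner, threshold and down-sampling behind these lists are not given in the sources used here. A later study that reused the shNT libraries describes removal of PCR duplicates by UMI, binning of the genome, a fixed UMI threshold per bin and merging of nearby bins. In the files, all starts and ends were multiples of 2 kb and the smallest gap was 4 kb.

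Chromosome 7 regions were assigned to windows by their start. Arms were taken as up to 58 Mb and from 61 Mb. Overlap needed 1 bp. Region lists were merged where they overlapped or abutted. Group differences of library values were tested by exact permutation (Python 3.11.15, numpy 2.4.6, scipy 1.17.1), and functions were tested on simulated data. Named were the 5 longest merged regions of each class, the 5 windows of 5 Mb with the largest change, the windows around the segment, and the 3 fullest windows of 1 Mb per library, given where the text needs them. The chromosome, the segment and the tests were chosen with earlier results of these data known. Alternatives changed the libraries used, the merging gap, the minimum width, the overlap rule, the windows and the segment. The reference supplied was hg38, so genes and sequences were not assigned.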

Additional observations from a re-analysis of the deposited data

How the results depend on the processing

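Over 10 results and 109 alternatives, none of the 8 results that carry a sign reversed, and the 2 shares touched have no sign. Some of these alternatives could not change a value. For width, single bins, pair share, q arm and segment share, pairing the libraries by number, straight or crossed, returns the main difference by construction. The number of regions inside the segment was not among the 10 results. The segment share and the log2 ratios of numbers were among them. They rest on a chromosome and a segment selected on these numbers, so their unchanged sign adds no support. The pair share among the 10 results includes the segment. For the 5 exact comparisons only the direction could be assessed. Leaving out 1 library at a time gave width differences of 0.961 to 1.12 kb, single-bin differences of -27.2 to -23.2 percentage points, pair-share differences of -2.42 to -1.74, q-arm differences of -20.6 to -11.2, segment differences of -37.3 to -36.0, Jaccard differences of 0.0397 to 0.408, log2 ratios of 0.29 to 1.14 for the chromosome and 1.01 to 1.90 outside the segment, and shares touched of 15.6 to 27.1% (shNT) and 9.06 to 20.8% (shCDK12). Among regions of at least 4 kb, the log2 ratios were 2.72 for the chromosome and 3.38 outside the segment, the shares touched 42.1 and 8.70%, and the segment difference -32.4 percentage points. The segment difference was -31.8 after merging across 50 kb and -40.7 with the segment widened to 78 to 92 Mb. The shares touched were 27 and 22.0% when regions within 10 kb counted, and 50% and 22.4% for regions in both replicates. The share of shNT regions was 33.1% without the segment, and that of shCDK12 regions 12.2% when at least 0.5 of the region had to be covered. The causes were not tested.

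Same-numbered replicates did not deviate together (correlation of deviations -0.0180 over 1 Mb windows, -0.131 over 5 Mb windows), and the numbers were not taken to pair libraries. Values were also taken within pairs of same-numbered libraries and averaged over the 2 pairs (replicate block). The share of shCDK12 regions touched was then 12.1%, the share of shNT regions 20.0%, and the log2 ratios 0.71 and 1.45. The width difference was 1.04 kb and the segment difference -36.6 percentage points. In a pair, a list is compared with 1 list of the other group in place of the union of 2, so these shares are not directly comparable with the main ones. With the numbers crossed, an alternative chosen after seeing the data, the share of shCDK12 regions touched was 12.3%, and 0 exact comparisons passed 0.05 under any setting, which 2 against 2 libraries do not allow. Unknown depth limits every comparison of numbers.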
